A study of Lolium perenne with 10 samples.

Results

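In leaves of perennial ryegrass, a grass of pastures and lawns suited to cool climates (Lolium perenne), 150 genes were followed that stood above control in one temperature treatment and below control in the other. They were taken from a table of read counts for 46394 genes. Of these, 21817 had at least 10 counts in both libraries of control, drought or either temperature group. A gene was eligible if its mean log2(CPM + 1), with CPM meaning counts scaled to library depth and a library factor, was at least 1 above control in the group titled heat and at most −1 relative to control in the group titled cold. In all, 404 genes met both thresholds, and the 150 with the largest smaller difference of the pair were taken as members and ranked by it from 1 to 150. The members were thus chosen by their control, title-cold and title-heat values. Drought and submergence values played no part in the ranking. Every member had at least 10 counts in both title-heat libraries, so none entered through the drought libraries.

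The study compared wild-type seedlings in 5 groups of 2 libraries: untreated control, drought, submergence, title-cold and title-heat. Each library pooled 30 seedlings raised in peat soil and vermiculite under a 22/18 °C day and night cycle with a 16 h photoperiod. Drought was 7 days without water, started at 7 days of age, and the temperature treatments of 4 or 42 °C ran for 12 h from 14 days of age. How long submergence lasted, and how old the submerged and control seedlings were, is not given in the sources used here.

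Which temperature each group received cannot be settled from the labels. The title-cold libraries have heat in their treatment field and the title-heat libraries have cold there. The names below therefore repeat the titles, and no temperature is attached to them. The protocol text also speaks of Arabidopsis, with other durations and a recovery period, and of bermudagrass, so its details may not describe these leaves. The deposited sheet of counts also has bermudagrass and cold in its name, inside a workbook named for perennial ryegrass. Its column names are those in the sample labels, so the counts were taken as ryegrass, and whether they come from another species was not tested. Nothing in the labels says that the libraries of a group came from separately grown plants, so p-values reflect how far these libraries differ, which may be technical in part.

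As background, plant leaves answer heat mainly through heat shock factors, which switch on chaperones that keep proteins folded. They answer cold through transcription factors of the CBF family, which switch on proteins that protect membranes and cells at low temperature. Water deficit acts largely through the hormone abscisic acid, and submergence limits gas exchange, so submerged tissue shifts towards metabolism with little oxygen. The identifiers of this table are those of assembled sequences that carry no gene name in the files, and 0 of them match the 56406 genes of the RefSeq annotation of this grass. No member can therefore be placed in any of these pathways, the leaf label could not be checked against marker genes, and no sequence is shown. Besides 4 members given by identifier, members are referred to by rank. Among the members, 2 identifiers share the part before the dot (ranks 41 and 85), so they may be pieces of one assembled locus.

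Total counts were 10847727 to 12605087 per library. Submerged libraries stood apart, with 25967 and 26054 genes at 10 or more counts, against 17742 to 21403 in the other 8. Their scaling factors were 1.40 and 1.30, those of title-cold 1.24 and 1.31, and those of the other groups 0.753 to 0.913, so scaling bears on comparisons with either of these groups. Within a group, a chi-square comparison of counts gave 7.71 to 22 per degree of freedom, well above sampling noise, and each library was counted as a replicate. Across the members, on log2(CPM + 1), the 2 libraries of a group correlated at r = 0.945 to 0.987, a description across genes, which are not independent replicates.

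The members together held a small share of the transcriptome that differed widely between groups. They took 3.84 ± 0.0084% of all counts in title-heat (SD, n = 2), 1.38 ± 0.0819% under drought, 0.742 ± 0.029% in control, 0.596 ± 0.0736% under submergence and 0.18 ± 0.0048% in title-cold. That title-heat lay above control and title-cold below it was set by the rule, while the places of drought and submergence were not. Fewer cells of a type and less RNA per cell cannot be told apart in such whole-leaf libraries.

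The typical member was of moderate level. The median over the members of the group mean was 133 CPM in title-heat, 51.3 CPM under drought, 22 CPM in control, 11.6 CPM under submergence and 3.14 CPM in title-cold. Mean levels in control spread from 1.83 to 919 CPM, with 19 members under 5 CPM, 94 from 5 to 50 CPM and 37 at 50 CPM or more. Title-heat was the highest of the 5 groups for 129 members, drought for 20 and submergence for 1. Title-cold was the lowest for 119 members, submergence for 30 and drought for 1. The rule placed title-heat above control and title-cold below it, which favours these groups at the ends. Shares over all genes were not computed for these places, so they are a description only.

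**Figure D1:**
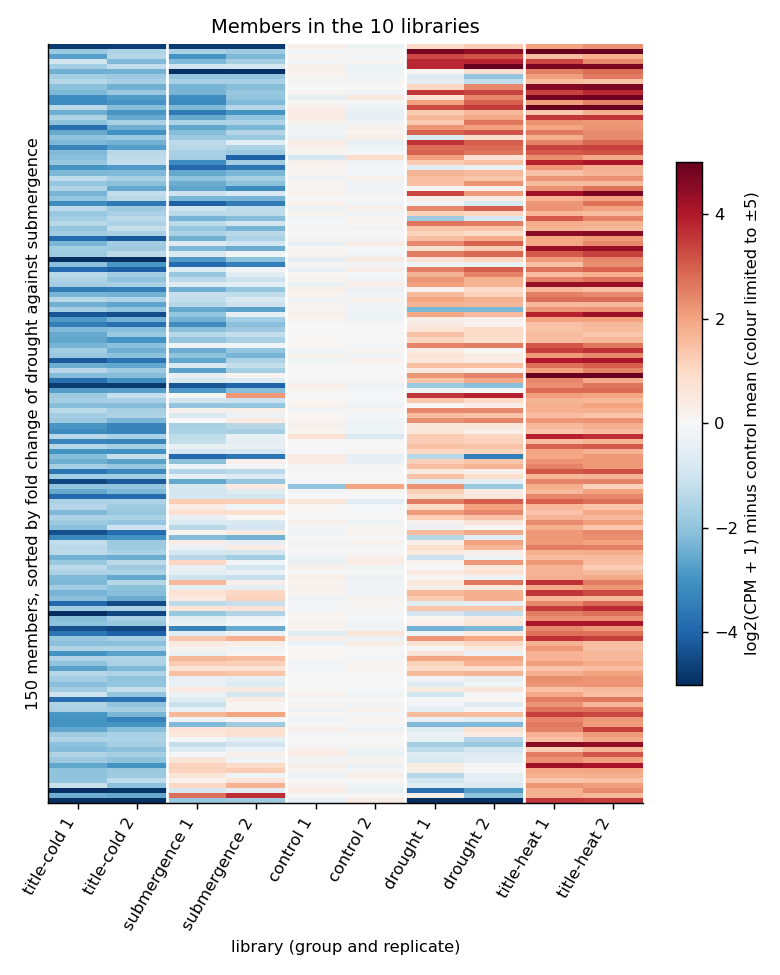
Members (rows, 150) in the 10 libraries (columns, group and replicate), coloured by log2(CPM + 1) minus the control mean, limited to ±5, and sorted by the fitted fold change of drought against submergence. The title-cold columns are blue and the title-heat columns red throughout, which the rule requires of the group means. Most rows are red under drought and blue under submergence, and a few at the bottom show the reverse.

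The values that chose the members are given as a description. The difference from control in title-heat ran from 1.45 to 8.63 on the log2 scale with a median of 2.21, and in title-cold from −5.59 to −1.44 with a median of −2.01. The smaller of the pair was the title-cold difference in 85 members and the title-heat difference in 65. By edgeR's quasi-likelihood test with Benjamini-Hochberg adjustment and a threshold of 0.05, 141 members were called higher in title-heat than control and 142 lower in title-cold. Over all 27571 genes tested these calls took 12.3% and 12.2%, and nothing is read from them because the same libraries chose the members. The last gene inside the list had differences of 1.82 and −1.44, and the first outside had 1.44 and −4.34. The border between members and other genes is thus one of size alone, as the plot of the choice of members shows.

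**Figure D2:**
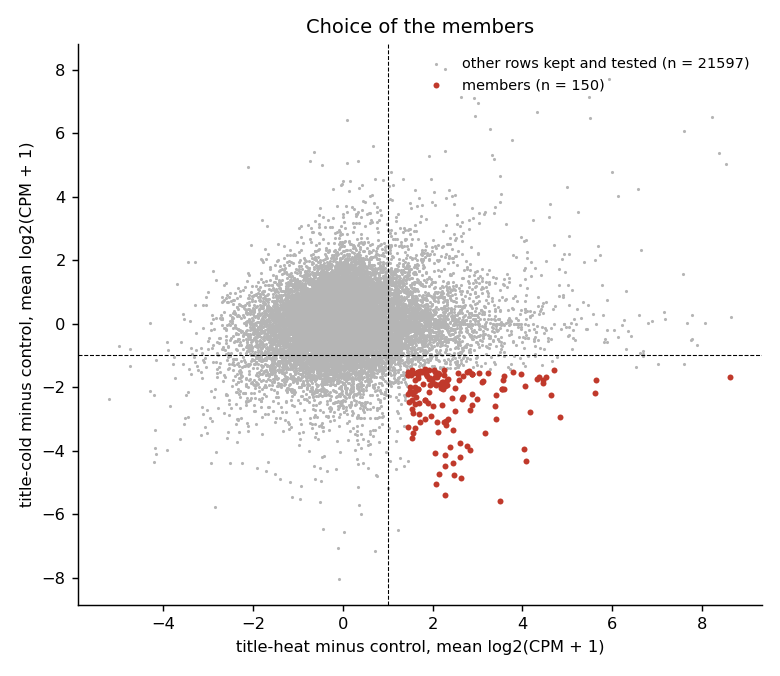
Mean log2(CPM + 1) in title-heat minus control (x axis) against title-cold minus control (y axis) for each row kept by the rule and tested. Dashed lines mark the thresholds of 1 and −1, members are red, and the unmarked points beyond both lines are genes that met the thresholds and ranked after the first 150.

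Drought leaves carried more RNA of most members than submerged leaves. In the comparison of drought with submergence, whose libraries had no part in the ranking, 109 of the 150 members were higher under drought and 11 lower by edgeR's quasi-likelihood test. Over all genes tested, 21.7% were called higher and 33.7% lower, and over the rows kept by the rule 27.1% and 22.5%. Of the members, 101 were higher by at least 2-fold and 9 lower by at least 2-fold, against 17.8% and 29.4% of all genes. Of the 21747 rows kept by the rule and tested, 4823 were higher and 3706 lower by that margin. The median standard error of the log2 fold change was 0.30 in the members, 0.50 over all genes and 0.37 over these rows. Members could thus be called more readily in either direction. Their median standard error was also the lowest in the comparisons of drought and of submergence with control.

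The size of the difference was large for a typical member. The median log2 fold change of drought against submergence was 2.12 over the members and −0.37 over all genes tested. With genes at 0 counts in one group set at their bound, these medians were 2.07 and −0.36. Among the rows kept by the rule that were not members, the median was −0.02. In 118 members both drought libraries lay above both submergence libraries, in 16 both lay below, and in 16 the groups overlapped. The corresponding shares of all genes were 30.1% above and 47.2% below. Of the 21747 rows kept by the rule and tested, 8141 lay above and 8124 below, so the skew over all genes was absent there. That filter admits rows through drought but not through submergence, so it can drop genes read mainly under submergence.

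The balance was described in subsets of the members too. Of the members ranked 1 to 75, 56 were called higher under drought than under submergence and 7 lower, and of those ranked 76 to 150, 53 and 4. By control level, 13 of 19 members under 5 CPM were called higher and 0 lower, 64 of 94 at 5 to 50 CPM higher and 8 lower, and 32 of 37 at 50 CPM or more higher and 3 lower. The 254 genes that met the thresholds but ranked lower showed 181 higher and 25 lower. These subsets are described without a test of their differences.

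Scaling moved the counts without turning the balance. With libraries scaled by their totals alone, this comparison shifted over all genes by a median of −0.64 on the log2 scale, and 92 members were called higher and 22 lower. All genes then had 14% called higher and 48.2% lower. A change of method moved the share of all genes called lower the other way, from 33.7% to 20.2% by DESeq2 (20.7% higher). By DESeq2, 10 members were called lower and 108 higher. Without submergence replicate 1 the median log2 fold change was 1.94 over the members and −0.27 over all genes tested. Without submergence replicate 2 these medians were 2.31 and −0.31.

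**Figure D3:**
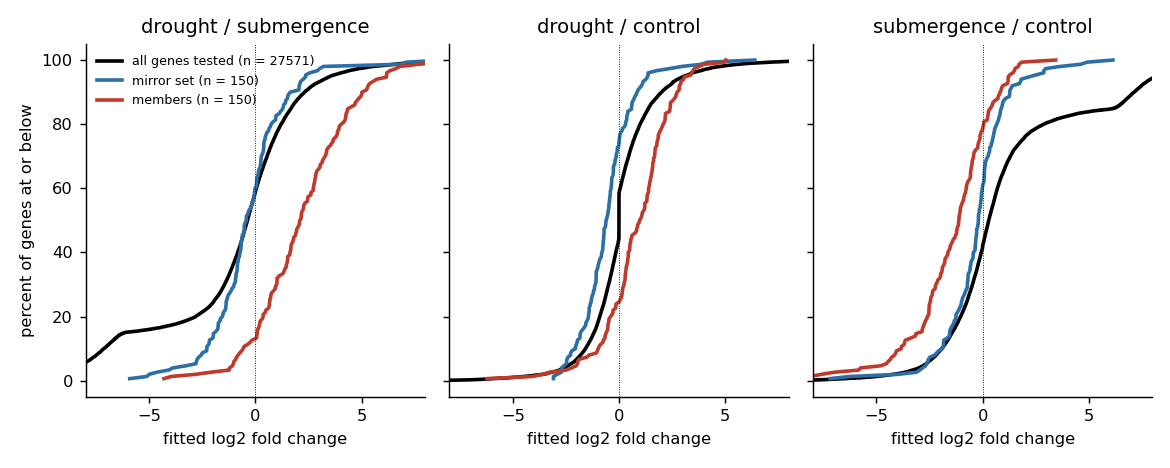
Cumulative percent of genes (y axis) at or below each fitted log2 fold change (x axis, shown from −8 to 8) for the members, the mirror set and all genes tested. The red curve lies to the right of the black one for drought against submergence (medians 2.12 and −0.37) and for drought against control (1.00 and 0.00), and to its left for submergence against control (−1.11 and 0.29).

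Set against control, the members tended to be higher under drought. By edgeR's quasi-likelihood test 73 members were called higher and 12 lower, with 65 not called, against 15.2% and 11.7% of all genes tested and 19% and 14.6% of the rows kept by the rule. The median log2 fold change was 1.00, and 66 members were higher and 11 lower by at least 2-fold, against 12.3% and 8.33% of all genes. Among the 21747 rows kept by the rule and tested, 3332 were higher and 2258 lower by that margin. Both drought libraries lay above both control libraries in 95 members, against 28.6% of all genes, and below in 27, against 28.8%. Of the 21747 rows kept by the rule and tested, 7523 lay above and 7579 below. The control libraries also served to choose the members, so this comparison is less separate from the rule than that of drought with submergence.

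Drought reached or passed the title-heat level in some members. The mean drought level was above the mean title-heat level in 20 members, and in 12 of these both drought libraries lay above both title-heat libraries. This is a description, since title-heat values chose the members. The share of all genes with drought above title-heat was not computed, so nothing about the members is read from these counts.

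Under submergence the members tended to be lower than in control. By edgeR's quasi-likelihood test 87 were called lower and 15 higher, with 48 not called, against 17.1% and 32.2% of all genes tested and 21.4% and 20.6% of the rows kept by the rule. The median log2 fold change was −1.11 over the members, 0.29 over all genes and −0.0005 over the rows kept by the rule. Both submergence libraries lay below both control libraries in 104 members and above in 24, against 28.7% and 45.8% of all genes. Of the 21747 rows kept by the rule and tested, 7708 lay below and 7811 above. With scaling by totals, which shifted all genes by a median of 0.63 on the log2 scale, 68 members were called lower and 28 higher. Without submergence replicate 2 the higher calls numbered 9. As for drought, the control libraries of this comparison also helped choose the members, so it is not fully separate from the rule.

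The comparisons of drought and of submergence with control share the same control libraries, so their counts are given side by side and are not independent of each other. In all, 3 members had 0 counts in both submergence libraries and 3 had 0 in both title-cold libraries, while no member was at 0 in both libraries of another group. A library at 0 may stand for as many as 3 counts, a limit that covers counting error only.

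**Figure D4:**
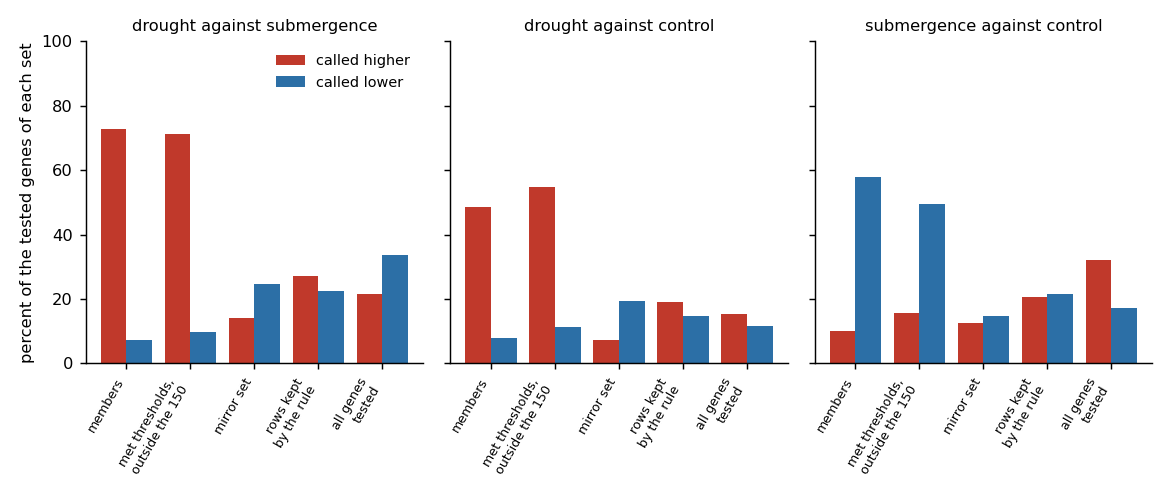
Percent of the tested genes (y axis) called higher (red) or lower (blue) in the 3 comparisons, for the members, the genes that met the thresholds outside the 150, the mirror set, the rows kept by the rule and all genes tested. Among the members 72.7% were higher and 7.33% lower in drought against submergence, 48.7% and 8% in drought against control, and 10% and 58% in submergence against control.

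The mirror set, made by exchanging the 2 temperature groups in the rule, is the set most like the members in construction. The exchanged thresholds were met by 183 genes, and the first 150 were taken. In drought against submergence 21 of them were called higher and 37 lower, with a median log2 fold change of −0.43. In drought against control 11 were called higher and 29 lower, and in submergence against control 19 and 22. The mirror set was measured less tightly. In drought against submergence its median standard error of the log2 fold change was 0.48, against 0.30 in the members. Counts of calls are thus not directly comparable between these sets, and the difference between the members and the mirror set was not tested.

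The members named by identifier show how far single genes departed from one another. They are the 2 most raised and the 2 most lowered in drought against submergence by fitted log2 fold change. Each was called, had at least 5 CPM in the higher group and showed no overlap between the groups. What proteins they encode is not known from the files. Standard errors (SE) of log2 fold changes are those implied by the quasi-likelihood F statistic.

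The gene c141899.graph_c0, of rank 37, had no counts in submerged leaves. Its levels were 31.8 and 22.4 CPM in the control libraries, 53.1 and 64.3 CPM under drought, 0 CPM in both submerged libraries, 0 and 0.0668 CPM in title-cold, and 109 and 133 CPM in title-heat. No drought library overlapped control, and title-cold held 0 and 1 counts. Drought was at least 307.3-fold higher than submergence, with submergence set at a floor of 3 counts per library. The edgeR test, made on the fitted fold change without that floor, gave adjusted p = 2.73e-06.

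The gene c151487.graph_c0, of rank 84, had the largest title-heat difference among the members, 8.63 on the log2 scale. It had 2.69 and 3.02 CPM in control, 100.04 and 81.3 CPM under drought, 0.264 and 0.122 CPM under submergence, 0.0738 and 0.334 CPM in title-cold, and 1472 and 1578 CPM in title-heat. Both control libraries lay above all submergence and title-cold libraries and below all drought and title-heat libraries. Submergence rested on 4 and 2 counts. The ratio of drought to submergence in pooled, scaled counts was 475, with 217.8 to 1296 as its exact 95% interval for counting error. The fitted difference was 8.81 on the log2 scale (adjusted p = 1.22e-06, edgeR). This difference became 9.40 without submergence replicate 1 and 8.36 without submergence replicate 2. Against control, drought raised it by 4.98 ± 0.26 on the log2 scale (SE, adjusted p = 6.87e-06, edgeR).

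The gene c165279.graph_c1, of rank 3, was among the 12 members called lower under drought than in control. It had 121 and 208 CPM in control, 1.97 and 2.41 CPM under drought, 41.6 and 45.4 CPM under submergence, 2.58 and 2.07 CPM in title-cold, and 1867 and 1758 CPM in title-heat. Drought and title-cold were the low groups and did not differ beyond their libraries' range, and title-heat stood far above all others. Drought was lower than submergence by −4.30 ± 0.31 on the log2 scale (SE, adjusted p = 1.04e-05, edgeR) and lower than control by −6.22 ± 0.32 (adjusted p = 6.78e-06).

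The gene c165731.graph_c0, of rank 83, was the member whose highest group was submergence. It had 7.5 and 8.47 CPM in control, 9.95 and 1.21 CPM under drought, 59.6 and 114 CPM under submergence, 0.664 and 0.535 CPM in title-cold, and 29.5 and 26.7 CPM in title-heat. The drought libraries lay on both sides of control, and the submerged libraries lay above all others. Drought was lower than submergence by −3.97 ± 0.71 on the log2 scale (SE, adjusted p = 0.00245, edgeR), and by −6.16 without drought replicate 1 and −3.13 without drought replicate 2. Submergence against control gave 3.44 ± 0.69 (adjusted p = 0.00449).

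**Figure D5:**
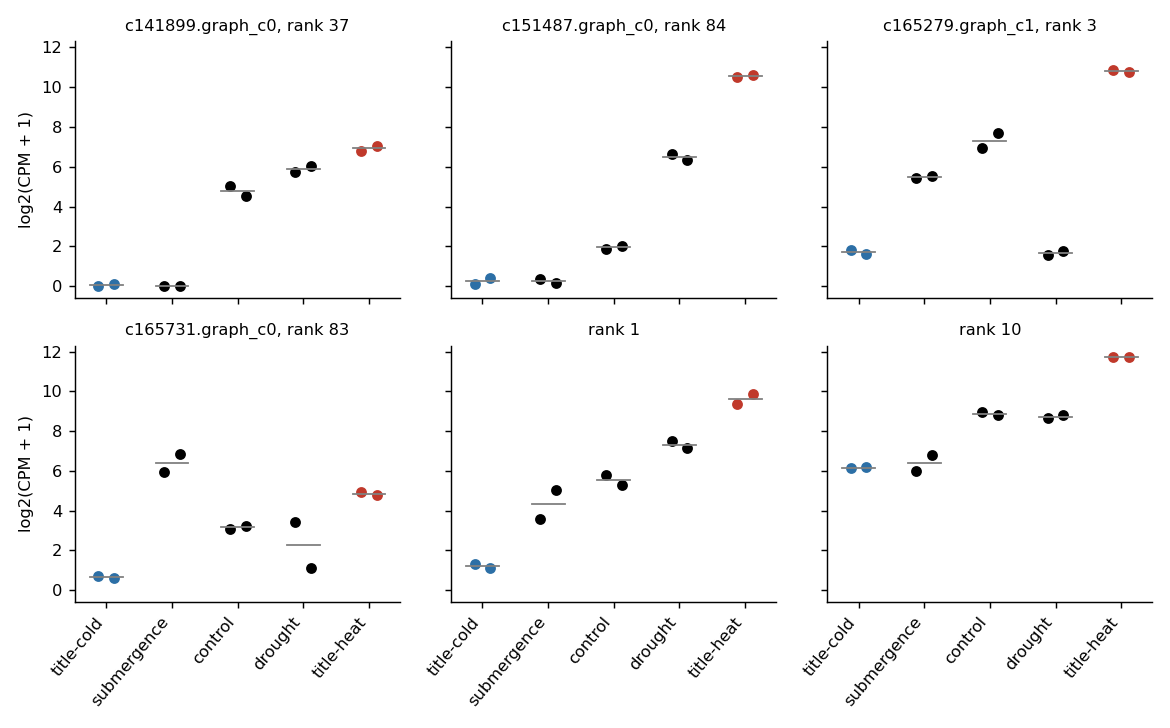
Levels of 6 members as log2(CPM + 1) (y axis) in the 2 libraries of each group (points, with the group mean as a grey line). The upper row and the lower left panel show the members given by identifier, and the other panels those of ranks 1 and 10. Title-heat is highest in every panel except that of c165731.graph_c0, where submergence is.

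The first ranks hold the members far from control in both temperature groups. The member ranked 1 had 54.5 and 37.7 CPM in control, 178 and 139 CPM under drought, 11 and 32.5 CPM under submergence, 1.48 and 1.14 CPM in title-cold, and 662 and 923 CPM in title-heat. No groups overlapped, and the order ran from title-cold through submergence, control and drought to title-heat. Drought exceeded submergence by 2.86 ± 0.46 on the log2 scale (SE, adjusted p = 0.00122, edgeR), and submergence against control, −1.08 ± 0.44, did not pass the test (adjusted p = 0.0728).

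The member ranked 2 had 34 and 45.1 CPM in control, 60.5 and 51.4 CPM under drought, 5.55 and 12.6 CPM under submergence, 1.18 and 2.14 CPM in title-cold, and 644 and 674 CPM in title-heat. It was lower under submergence than in control by −2.12 ± 0.35 on the log2 scale (SE, adjusted p = 0.00145, edgeR), while drought against control was 0.50 ± 0.33 (adjusted p = 0.323). The member ranked 4 had 136 and 127 CPM in control, 181 and 158 CPM under drought, 46.6 and 51.5 CPM under submergence, 9.52 and 13.1 CPM in title-cold, and 1145 and 1233 CPM in title-heat. Both thus fell under submergence, and for both the gap between drought and control did not pass the test.

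The members ranked 5 and 7 rose under drought. The member ranked 5 had 12.1 and 8.56 CPM in control, 77.5 and 78.4 CPM under drought, 3.24 and 2.75 CPM under submergence, 0.148 and 0.668 CPM in title-cold, and 117 and 119 CPM in title-heat. It rose under drought by 2.92 ± 0.27 on the log2 scale (SE, adjusted p = 0.000107, edgeR). The member ranked 7 had 12.5 and 20.4 CPM in control and 98.9 and 138 CPM under drought, against 110 and 132 CPM in title-heat. Drought exceeded control by 2.84 ± 0.32 on the log2 scale (SE, adjusted p = 0.000342, edgeR). Its drought and title-heat libraries overlapped.

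The member ranked 6 had uneven libraries, with 13.9 and 45.8 CPM under drought and 5.15 and 11.3 CPM in control. Its title-heat levels were 242 and 255 CPM, its submerged levels 0 and 1.22 CPM and its title-cold levels 0 and 0.267 CPM. Drought against control, 1.85 ± 0.74 on the log2 scale, did not pass the test (SE, adjusted p = 0.105, edgeR).

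For the members ranked 8 and 9 drought and control libraries overlapped. The member ranked 8 had 8.5 and 5.45 CPM in control, 9.02 and 6.23 CPM under drought, 16.5 and 14.7 CPM under submergence, 0.295 and 0 CPM in title-cold, and 146 and 137 CPM in title-heat. It was higher under submergence than in control by 1.17 ± 0.34 on the log2 scale (SE, adjusted p = 0.0179, edgeR). The member ranked 9 had 10.9 and 25.8 CPM in control, 13.7 and 24.5 CPM under drought and 11.4 and 13.5 CPM under submergence. Its 3 comparisons outside the temperature groups did not pass the test.

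Of the 5 members with the highest mean CPM over the 10 libraries, all but the fifth fell under submergence. The most abundant, of rank 122, had 930 and 909 CPM in control, 1258 and 1028 CPM under drought, 107 and 214 CPM under submergence, 84.6 and 65.9 CPM in title-cold, and 2552 and 2835 CPM in title-heat. It fell under submergence by −2.52 ± 0.30 on the log2 scale (SE, adjusted p = 0.000204, edgeR). Drought against control, 0.31 ± 0.29, did not pass the test (adjusted p = 0.496).

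The second most abundant, of rank 18, had 629 and 675 CPM in control, 434 and 466 CPM under drought, 108 and 168 CPM under submergence, 26.6 and 34.7 CPM in title-cold, and 3565 and 3635 CPM in title-heat. The third, of rank 10, had 499 and 445 CPM in control, 398 and 449 CPM under drought, 63.3 and 111 CPM under submergence, 69.8 and 71.2 CPM in title-cold, and 3372 and 3343 CPM in title-heat. In both, submergence was below control, by −2.24 ± 0.22 and −2.44 ± 0.24 on the log2 scale (SE, adjusted p = 6.47e-05 and 6.76e-05, edgeR). For rank 10 the submerged and title-cold libraries overlapped.

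The fourth, of rank 80, had 427 and 324 CPM in control, 549 and 555 CPM under drought, 118 and 141 CPM under submergence, 48.9 and 36.4 CPM in title-cold, and 1149 and 1301 CPM in title-heat. The fifth, of rank 112, had 275 and 286 CPM in control, 639 and 755 CPM under drought, 211 and 277 CPM under submergence, 96.5 and 92.2 CPM in title-cold, and 912 and 853 CPM in title-heat. Rank 80 fell under submergence by −1.53 ± 0.20 on the log2 scale (SE, adjusted p = 0.000304, edgeR). Rank 112 was the exception, with submergence against control at −0.20 ± 0.16 (adjusted p = 0.343), and it rose under drought by 1.31 ± 0.17 (adjusted p = 0.000534).

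Replicates of the members agreed best in title-heat. On CPM + 1, the libraries of a group differed by more than 2-fold in 1 member in title-heat, 5 in control, 6 in title-cold, 12 under submergence and 18 under drought. Adding 1 narrows such differences at low levels, as in title-cold. Title-heat values helped choose the members, which favours high and even counts in that group. The share of all genes differing by more than 2-fold was not computed, so nothing about the members is read from these counts. Over all genes tested, too, libraries correlated best in title-heat (r = 0.985) and least under drought (r = 0.967), so these ends are not particular to the members. The weakest case, chosen after its values were seen, was the member of rank 134, with 0 and 14.6 CPM in control, 17.9 and 0.101 CPM under drought, and 13 and 7.85 CPM in title-heat. Its control libraries alone span its title-heat values, and its 3 comparisons outside the temperature groups did not pass the test.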

How the data were processed

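RNA-seq of leaves was analysed in 10 libraries. The authors deposited whole-number read counts per assembled gene. Per the submitters' processing notes the tools included RSEM and DESeq 1.10.1, whose roles are not stated. For the assembly and the aligner, nothing is given in the sources used here. If RSEM made them, the counts are rounded estimates, and reads shared by similar sequences were split.

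Groups come from the sample titles. Tests used edgeR 4.0.16 under R 4.3.3: filterByExpr (minimum count 10, minimum total 15) left 27571 genes (59.4%), and a quasi-likelihood model with TMM factors, robust dispersions and a coefficient per group was fitted to all 10 libraries (5 residual degrees of freedom, biological coefficient of variation 30%). Benjamini-Hochberg adjustment ran over all genes tested, with calls below 0.05. All 150 members passed the filter. CPM uses the factors of this fit, and the differences that chose the members use factors of the 21817 rows kept by the rule, with a pseudocount of 1. The fit was tested on simulated data.

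The members, the comparisons and the rules for describing members were chosen with earlier results of these data known. At most 4 identifiers are printed, since they have no names. Alternatives were RLE, upper-quartile and no factors, other filters, DESeq2 1.42.0, fewer groups, a replicate block and each library left out.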

Additional observations from a re-analysis of the deposited data

How the results depend on the processing

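For the 150 members, the balance of higher and lower calls in drought against submergence, drought against control and submergence against control kept its direction under every alternative run. The subsets, the mirror set and the genes outside the 150 were not recomputed. The balance of calls over all genes in drought against submergence did turn, narrowly by DESeq2, with 20.7% higher and 20.2% lower. With the filter of the rule, which does not read the submergence libraries, it was 25.7% and 22.9%. The median log2 fold change over all genes stayed negative in both, at −0.33 and −0.06. Leaving out each library in turn gave 99 to 105 members higher and 7 to 10 lower in drought against submergence, 58 to 73 higher and 8 to 12 lower in drought against control, and 9 to 13 higher and 75 to 82 lower in submergence against control. A lone library is assumed to vary like the other groups. In the same way the median against control was 2.24 to 2.31 in title-heat and −2.74 to −2.63 in title-cold. Upper-quartile factors gave 20 lower members in drought against control in place of 12, where they moved all genes by a median of −0.20. Total counts gave 22 lower members in drought against submergence and 28 higher in submergence against control, with medians of 1.48 and −0.48. Without the submergence libraries in the fit, an alternative chosen after seeing the data, drought against control had 75 higher and 13 lower members. The 404 genes that met the thresholds became 201 with total counts and 196 with a pseudocount of 5, 404 to 432 with a library left out, and 364 to 530 otherwise. Of the 150 members, 125 stayed within the first 150 with total counts, 102 with a pseudocount of 5, and 128 to 142 with a library left out. In these runs of the rule, the library left out was from control, title-cold or title-heat. Over all genes tested, same-numbered libraries did not deviate together (r = −0.0216 to 0.0423). This cannot exclude a shared batch that moved few genes or moved them little, and whether one existed is not known. A replicate block gave 107 higher and 10 lower members in drought against submergence, 73 and 12 in drought against control and 15 and 80 in submergence against control. Calls for the 4 members given by identifier held in all 48 alternative values of drought against submergence. Depth limits the low end: 40 and 33 members had under 10 counts in the title-cold libraries and 17 and 12 in the submerged ones.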
